A study of Mus musculus with 12 samples.

Results

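The 4 libraries of muscle stem cells taken 21 days after injury fall into a pair low in Sesn2 and a pair high in Sesn2, and this division does not follow their genotype labels. The pairs were chosen by Sesn2 itself, under 20 CPM (counts scaled to library size) in one and over 50 CPM in the other. They hold 4 of the 12 libraries of a bulk RNA sequencing study of mice labelled Sestrin1,2 Knockout and wild type, in which cells were sorted before injury (day 0), and at days 7 and 21. Each genotype and day has 2 libraries, all from C57BL/6J mice aged 2 to 3 months, and the sorted cells came from the tibialis anterior, gastrocnemius and quadriceps. The low-Sesn2 pair is replicate 1 labelled knockout and replicate 1 labelled wild type. The high-Sesn2 pair is replicate 2 of each label. Low against high is therefore also replicate 1 against replicate 2 at day 21, and Sesn2 cannot be told apart from anything else that goes with the replicate number. Sesn2 goes against the labels of replicate 2 labelled knockout and replicate 1 labelled wild type, and an exchange of these labels cannot be told apart from a difference between replicates. Every contrast between labels at day 21 is read with that limit. The labels do not say whether replicates are separate animals, which cell types carry the knockout or what the injury was, so that p-values below measure the spread between these libraries, which may be technical.

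Sestrins are stress-induced proteins that hold back the growth kinase mTORC1 when amino acids are scarce, by binding the GATOR2 complex. Type I and type II interferons act through receptors, JAK kinases and transcription factors to switch on a shared set of antiviral and antigen presentation genes. The circadian clock is a loop in which Arntl (BMAL1) with Clock or Npas2 drives its own repressors, the Per, Cry and Nr1d genes, together with output factors such as Dbp.

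Sesn2 (ENSMUSG00000028893, GRCm38 chromosome 4, 132492032 to 132510501, minus strand) stood at 9.86 CPM in replicate 1 labelled knockout and 8.92 CPM in replicate 1 labelled wild type, from 267 and 302 counts. It stood at 108 CPM in replicate 2 labelled knockout and 82.1 CPM in replicate 2 labelled wild type, from 3436 and 2839 counts. These values chose the pairs and are no test of them. For reference, the knockout libraries lay at 5.47 and 7.03 CPM at day 0 and 2.36 and 1.92 CPM at day 7, while the wild-type libraries lay at 75.1 and 84.3 CPM, then 44.9 and 47.4 CPM. The low pair was thus above every knockout library of days 0 and 7, and nearer to those of day 0, and the high pair was near or above the wild-type libraries of day 0. Between labels at day 21 the fitted log2 fold change of Sesn2 was 0.38 (SE 1.07, edgeR adjusted p = 0.916, 12 libraries). It was -3.70 at day 0 and -4.42 at day 7 (SE 0.145 and 0.159, edgeR adjusted p = 6.2e-06 in both, 8 libraries).

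Sesn1 (ENSMUSG00000038332, chromosome 10, 41809935 to 41908424, plus strand), the other gene named in the knockout label, was at 41.7 and 43.7 CPM in the low pair and 67.2 and 78.3 CPM in the high pair, in the order labelled knockout, then labelled wild type. The pairs did not overlap, and the same order was seen between labels at day 0, where knockout libraries held 46.0 and 45.8 CPM and wild-type libraries 70.3 and 68.6 CPM. Sesn3, which was not targeted, overlapped between the pairs, at 1.44 and 2.36 CPM in the low pair and 1.54 and 1.5 CPM in the high pair.

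**Figure D1:**
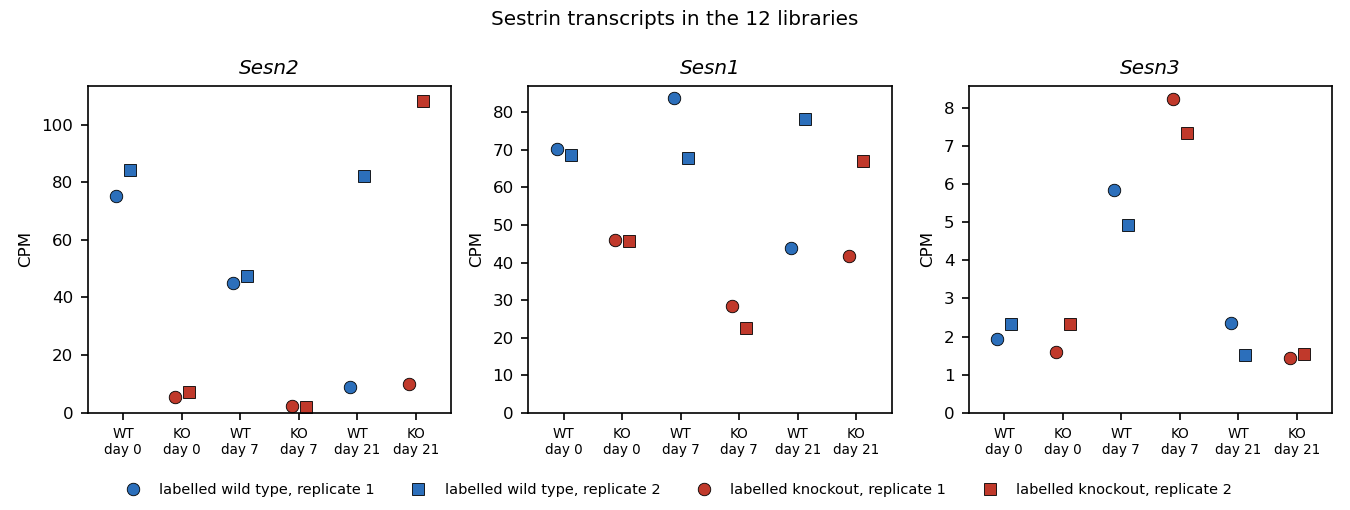
Sesn2, Sesn1 and Sesn3 in CPM (linear axes from 0) in each of the 12 libraries, by labelled genotype (WT wild type, KO knockout; colour) and day, with replicate 1 as circles and replicate 2 as squares. At day 21 both circles of Sesn2 lie under 10 CPM and both squares over 80 CPM, whatever the label.

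The promoters shown here belong to genes that stood higher in the low-Sesn2 pair. They are the 250 bases before the RefSeq gene start, from the RefSeq table for GRCm38.p6, 5′ to 3′ on the gene's strand. In the first 4, capitals mark matches on either strand to GAAA, any 2 bases and GAAA again, letters of the element bound by interferon-activated factors (the interferon-stimulated response element). In Ciart capitals mark CACGTG, the E-box bound by the clock activators, and in Per3 they mark TTATGTAA, the D-box bound by Dbp and its relatives.
Ifit1 (chr19:34640639-34640888, plus strand): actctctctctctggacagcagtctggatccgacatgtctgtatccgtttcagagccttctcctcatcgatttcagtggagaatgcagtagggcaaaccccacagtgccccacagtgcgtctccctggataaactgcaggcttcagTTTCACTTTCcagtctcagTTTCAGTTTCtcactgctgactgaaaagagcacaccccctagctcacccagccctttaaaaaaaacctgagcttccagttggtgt
Rsad2 (chr12:26456453-26456702, minus strand): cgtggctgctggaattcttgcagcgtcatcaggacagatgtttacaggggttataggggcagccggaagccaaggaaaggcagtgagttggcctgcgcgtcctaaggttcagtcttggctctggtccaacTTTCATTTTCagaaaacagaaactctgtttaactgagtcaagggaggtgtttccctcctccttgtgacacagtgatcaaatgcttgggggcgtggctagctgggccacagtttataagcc
Gbp2 (chr3:142620413-142620662, plus strand): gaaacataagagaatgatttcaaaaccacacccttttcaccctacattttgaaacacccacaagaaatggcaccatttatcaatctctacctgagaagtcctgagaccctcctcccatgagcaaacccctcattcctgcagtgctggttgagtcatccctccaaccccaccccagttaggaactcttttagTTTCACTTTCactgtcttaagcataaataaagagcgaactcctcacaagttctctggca
B2m (chr2:122147437-122147686, plus strand): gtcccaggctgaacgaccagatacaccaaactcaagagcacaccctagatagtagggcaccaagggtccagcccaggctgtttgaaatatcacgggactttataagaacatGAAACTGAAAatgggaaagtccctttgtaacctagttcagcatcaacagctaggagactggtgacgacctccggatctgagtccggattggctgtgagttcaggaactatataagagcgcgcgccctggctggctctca
Ciart (chr3:95882229-95882478, minus strand): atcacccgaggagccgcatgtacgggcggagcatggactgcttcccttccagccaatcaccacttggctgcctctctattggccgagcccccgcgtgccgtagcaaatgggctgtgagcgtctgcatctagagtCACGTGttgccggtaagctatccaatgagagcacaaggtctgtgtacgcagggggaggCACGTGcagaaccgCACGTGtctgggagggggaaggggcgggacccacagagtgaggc
Per3 (chr4:151044666-151044915, minus strand): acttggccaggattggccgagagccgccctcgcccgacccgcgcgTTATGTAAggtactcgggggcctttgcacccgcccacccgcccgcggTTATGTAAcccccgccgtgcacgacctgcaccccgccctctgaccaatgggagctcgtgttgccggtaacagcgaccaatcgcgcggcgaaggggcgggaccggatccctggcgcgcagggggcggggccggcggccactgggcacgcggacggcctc
Of the 69 interferon-stimulated genes tested, 52 had a promoter in the table, and 21 of these (40.4%) held that motif, against 3.46% of the 27025 genes with a promoter there. Of the 10 clock repressor genes, 8 had a promoter, of which 4 held CACGTG (6.86% of all genes) and 1 held TTATGTAA (0.977% of all genes). A match describes the letters of the window and is not a measured binding site.

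Interferon-stimulated genes, the largest of the 34 lists read, gave the highest count on the low-Sesn2 side. By share of the list, 76.8% were higher there, below the 100% of antigen presentation genes. Of 69 tested, 53 were higher in both low-Sesn2 libraries than in both high-Sesn2 libraries, none was lower in both, and 16 overlapped. Among all 15890 genes tested, 34.9% did not overlap, with 16.8% higher and 18.1% lower in the low pair. The list's median difference, low minus high, was 0.76 on the log2 CPM scale, against -0.02 over all genes. Summed over the list, levels were 5798 and 6050 CPM in the low pair and 2869 and 3252 CPM in the high pair. The 8 libraries of days 0 and 7 held 2858 to 3971 CPM, so that the low pair stood above all 10 other libraries and the high pair within their range. For 31 of the 69 genes singly, both low-Sesn2 libraries lay above all 10 others, which holds for 4.76% of all genes.

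Ifit1, an antiviral RNA-binding protein, had the widest gap in the list, the gap being the distance between the nearest libraries of the pairs on the log2 CPM scale. It was at 253 and 262 CPM in the low pair and 42.7 and 45.1 CPM in the high pair, a difference of 2.55 on the log2 scale. Its gap was 2.49. The mean difference was larger for Gbp6, a GTPase, at 3.19 with a gap of 1.99, from 10.3 and 7.92 CPM against 1.95 and 0.434 CPM. Its counts are uncertain, since its transcript is 99.8% identical to that of another gene of this name and 99.2% to Gbp10. Ifit3, a relative of Ifit1, stood at 141 and 127 CPM against 37.7 and 34.4 CPM, but Ifit3 is 97.8% identical to the neighbouring Ifit3b and its counts are uncertain. Rsad2 (viperin, an antiviral enzyme) was at 54.8 and 42.6 CPM against 13.5 and 8.16 CPM.

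Oasl2, of the oligoadenylate synthetase family, lay at 62.3 and 73.3 CPM in the low pair and 17.6 and 20.7 CPM in the high pair. Usp18, which removes ISG15 from proteins and dampens interferon signalling, was at 32.5 and 35.8 CPM against 10.2 and 13.2 CPM. Its gap of 1.30 was smaller than that of Ifit1. Among GTPases of the interferon-inducible families, Gbp2 stood at 230 and 247 CPM against 69.2 and 61.8 CPM. Igtp stood at 380 and 387 CPM against 124 and 151 CPM, and Ifi47 at 66.0 and 65.3 CPM against 15.7 and 16.1 CPM. Iigp1 (Irga6) was at 324 and 337 CPM against 75.1 and 85.5 CPM.

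In all, 16 of the 69 genes had a gap of at least 1, that is, at least 2-fold between the nearest libraries, against 0.68% of all genes with such a gap in this direction. Irf7, the interferon regulatory factor that amplifies the type I response, lay just inside that limit at a gap of 1.00, with 40.5 and 43.8 CPM in the low pair and 20.2 and 17.5 CPM in the high pair. Gbp7 lay just outside, with 88.6 and 84.7 CPM against 42.7 and 33.1 CPM and a gap of 0.99.

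The transcription factors that carry interferon signals differed less. Stat2 was at 125 and 117 CPM in the low pair and 90.2 and 54.2 CPM in the high pair, and Irf9, its partner, at 129 and 130 CPM against 106 and 96.4 CPM. Neither overlapped between the pairs. Bst2 (tetherin) stood at 39.7 and 43.5 CPM against 20.2 and 22.7 CPM, and Isg15, the ubiquitin-like modifier, at 43.0 and 50.6 CPM against 30.1 and 26.0 CPM. Of 21 genes for interferon sensing, 9 were higher in the low pair and 2 lower, against 16.8% and 18.1% of all genes. Socs1, an inhibitor of JAK kinases, was among the higher, at 66.7 and 55.8 CPM against 34.1 and 36.1 CPM. Ifnar2, a chain of the type I receptor, was at 113 and 112 CPM against 96.2 and 87.9 CPM, and its partner chain Ifnar1 overlapped.

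Not every interferon gene was divided. Mx1 was at 1.18 and 1.80 CPM in the low pair and 1.92 and 1.5 CPM in the high pair. Trim25 was at 45.9 and 60.0 CPM against 60.3 and 43.8 CPM, with the highest and the lowest library both in the high pair. Oas2 and Slfn2 overlapped too.

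All 19 antigen presentation genes tested were higher in both low-Sesn2 libraries, where 16.8% of all genes were. Their median difference was 0.72 on the log2 CPM scale, and both low-Sesn2 libraries exceeded all 10 others for 14 of them, against 4.76% of all genes. Summed levels were 4975 and 5259 CPM in the low pair and 2631 and 2329 CPM in the high pair. B2m, the light chain of every MHC class I molecule, was at 687 and 808 CPM against 299 and 354 CPM. H2-K1, a class I heavy chain, was at 815 and 851 CPM against 416 and 365 CPM. The nonclassical heavy chain genes H2-Q6 and H2-Q7 had the widest gaps, with H2-Q6 at 115 and 128 CPM against 13.5 and 15.1 CPM. The Qa genes are a multigene family of similar sequence, so their counts are uncertain one from another. Psmb8, a subunit of the immunoproteasome that cuts peptides for presentation, stood at 38.2 and 31.0 CPM against 14.1 and 12.9 CPM. Cd274 (PD-L1), a surface inhibitor of T cells that interferon induces, was at 86.1 and 79.9 CPM against 15.9 and 18.3 CPM.

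Cell types other than muscle stem cells could be in the sorted samples, and their markers were read in the same libraries. Summed over 17 macrophage markers, levels were 859 and 933 CPM in the low pair and 614 and 627 CPM in the high pair. Lyz2 made up most of this sum, at 757 and 857 CPM against 535 and 538 CPM, while Cd68, Csf1r and the C1q genes stood at 6.13 CPM or less in all 4 libraries. Of the 17, 3 (17.6%) were higher and 1 was lower in the low pair, where 16.8% of all genes were higher, and the list's median difference was -0.21. Of 7 lymphocyte markers tested, none was higher and 3 were lower in the low pair, where 18.1% of all genes were lower. Cd79b was at 0.0739 and 0.0886 CPM against 0.598 and 7.61 CPM. The part of macrophage cells in the interferon difference was not tested. In bulk samples fewer cells of a type and less RNA per cell cannot be told apart.

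**Figure D2:**
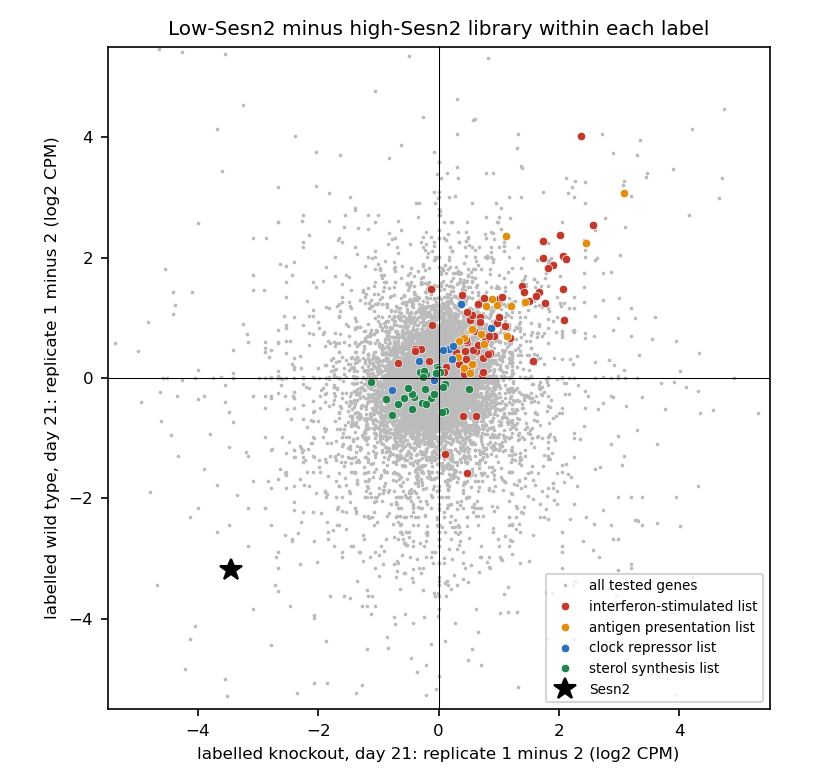
Replicate 1 (low Sesn2) minus replicate 2 (high Sesn2) at day 21, in log2 CPM, within the libraries labelled knockout (x axis) and within those labelled wild type (y axis). Each grey point is 1 of 15890 genes, of which 37 lie outside the axes, coloured points are list members and the star is Sesn2, and most interferon-stimulated and all antigen presentation genes lie at the upper right.

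Interferon genes were next read in contrasts that used no day 21 library, the labelled knockout against wild type at days 0 and 7, fitted together on 8 libraries. At day 0, where 38.3% of all genes were called (19.2% rose and 19.1% fell in knockout), 19 of the 69 interferon-stimulated genes rose and 7 fell. At day 7, where 7.33% were called, 1 rose and 5 fell. In knockout at day 0 Usp18 rose by 1.16 (SE 0.133, edgeR adjusted p = 0.00037), from 8.59 and 7.17 CPM in wild type to 17.4 and 18.1 CPM in knockout. Its day 7 log2 fold change was -0.23 (SE 0.124, edgeR adjusted p = 0.328). At day 0 Ifit1 rose by 0.53 (SE 0.144, edgeR adjusted p = 0.0207), and at day 7 its value was -0.41 (SE 0.134, edgeR adjusted p = 0.12). Antigen presentation genes went the other way at day 0, with 11 of 19 lower in knockout and none higher, and 2 higher at day 7. In knockout at day 0 B2m fell by 0.93 (SE 0.0748, edgeR adjusted p = 6.5e-05), from 582 and 537 CPM in wild type to 311 and 281 CPM in knockout. In the low-Sesn2 pair of day 21 it stood higher than in any of those 4 libraries.

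Between labels at day 21, where 0.0126% of all genes were called, none of the interferon-stimulated or antigen presentation genes was called, and the interferon list had a median difference of 0.04.

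**Figure D3:**
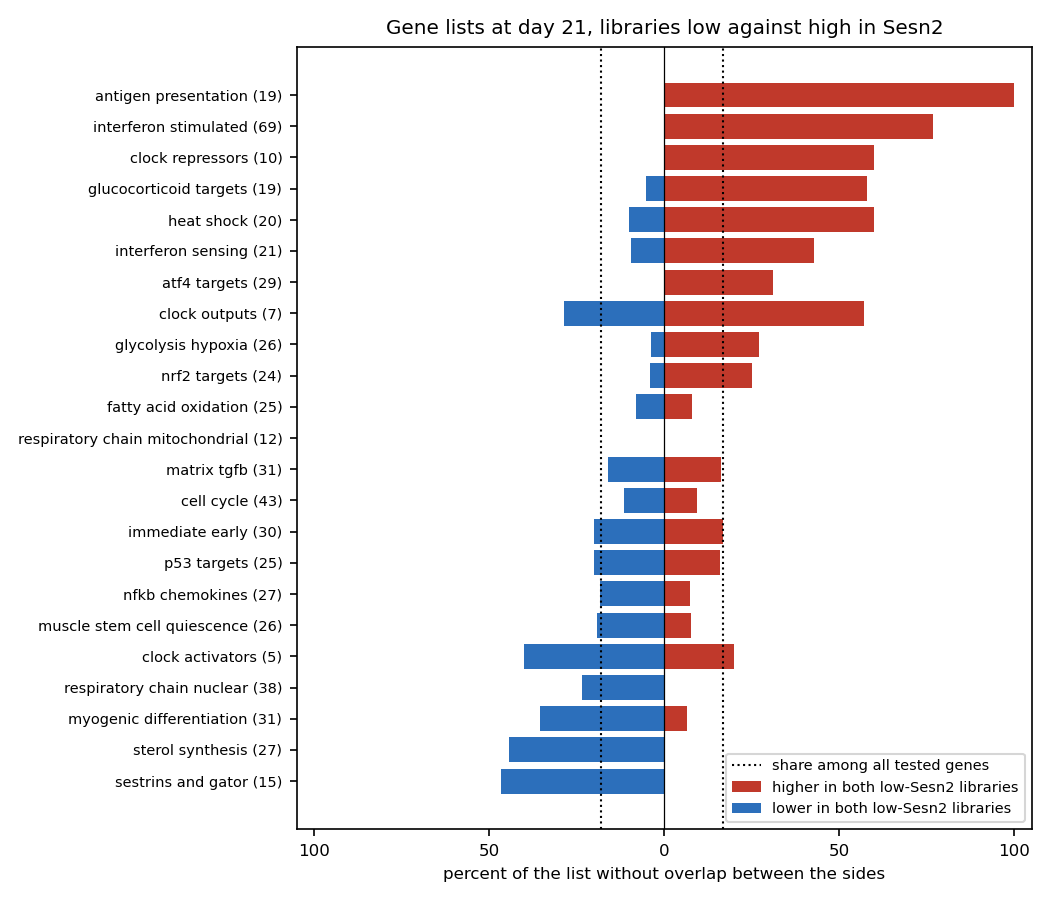
Share of each list plotted, in percent of its genes tested (number in brackets), that was higher (right) or lower (left) in both low-Sesn2 libraries of day 21 than in both high-Sesn2 libraries, with dotted lines at the share among all genes. Lists of other cell types, and of X inactivation and Y-linked genes, are not plotted. Antigen presentation reaches 100% on the right, and sestrins and GATOR, plotted without Sesn2, reach 46.7% on the left.

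Clock genes were divided too, though none with a gap of 1. The output factor Dbp (ENSMUSG00000059824, chromosome 7, 45705088 to 45710203, plus strand) was at 26.0 and 29.1 CPM in the low pair and 13.1 and 14.1 CPM in the high pair, 1.01 higher on the log2 scale. Its relative Tef stood at 180 and 171 CPM against 131 and 122 CPM, while Hlf, the other member of that family, overlapped. Of 10 clock repressors, 6 were higher in the low pair, none lower, and 4 overlapped, where 16.8% of all genes were higher and 18.1% lower. Per3 was at 11.4 and 10.8 CPM against 6.20 and 6.05 CPM. Ciart (CHRONO) was at 7.57 and 8.59 CPM against 5.82 and 3.64 CPM.

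The nuclear receptors Nr1d1 and Nr1d2 (REV-ERB alpha and beta), which repress Arntl, differed little. Nr1d1 was at 288 and 302 CPM in the low pair and 247 and 242 CPM in the high pair, and Nr1d2 at 246 and 254 CPM against 208 and 177 CPM. Per2 and Cry1 were higher by gaps of 0.09 and 0.05. Per1, Cry2, Bhlhe40 and Bhlhe41 overlapped. Per1 was at 17.8 and 42.5 CPM in the low pair and 30.6 and 48.6 CPM in the high pair, so that both knockout-labelled libraries lay below both wild-type-labelled ones.

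Of 5 clock activators 2 were lower in the low pair, 1 was higher and 2 overlapped, against 18.1% lower and 16.8% higher among all genes. Arntl was at 34.4 and 26.3 CPM in the low pair and 61.5 and 52.5 CPM in the high pair. Npas2, which can take the place of Clock, was at 21.6 and 18.8 CPM against 37.0 and 31.6 CPM. Clock overlapped, and Rora, an activator of Arntl, was higher in the low pair at 177 and 198 CPM against 149 and 160 CPM. Nfil3, which competes with Dbp at D-boxes, was lower at 251 and 254 CPM against 275 and 342 CPM. The labels give no hour of collection, so clock time cannot be told apart from the division.

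At day 0 the labelled genotypes differed in several of these genes in the opposite order. Dbp fell by 4.25 in knockout (SE 0.191, edgeR adjusted p = 9.1e-06), from 75.3 and 77.5 CPM in wild type to 3.83 and 4.31 CPM. Nr1d1 fell by 3.01 (SE 0.0629, edgeR adjusted p = 1.1e-07) and Ciart fell by 1.72 (SE 0.185, edgeR adjusted p = 0.00026). Arntl rose by 1.02 (SE 0.155, edgeR adjusted p = 0.0014) and Npas2 by 2.91 (SE 0.155, edgeR adjusted p = 1.7e-05). Low Sesn2 at day 21 thus went with high Dbp and low Arntl, whereas knockout at day 0 went with low Dbp and high Arntl. Of the 10 repressors 5 fell and 3 rose at day 0, where 19.1% and 19.2% of all genes did. At day 7, where 7.33% of all genes were called, none of the 10 was called, and Dbp lay between 6.47 and 9.07 CPM in all 4 libraries.

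**Figure D4:**
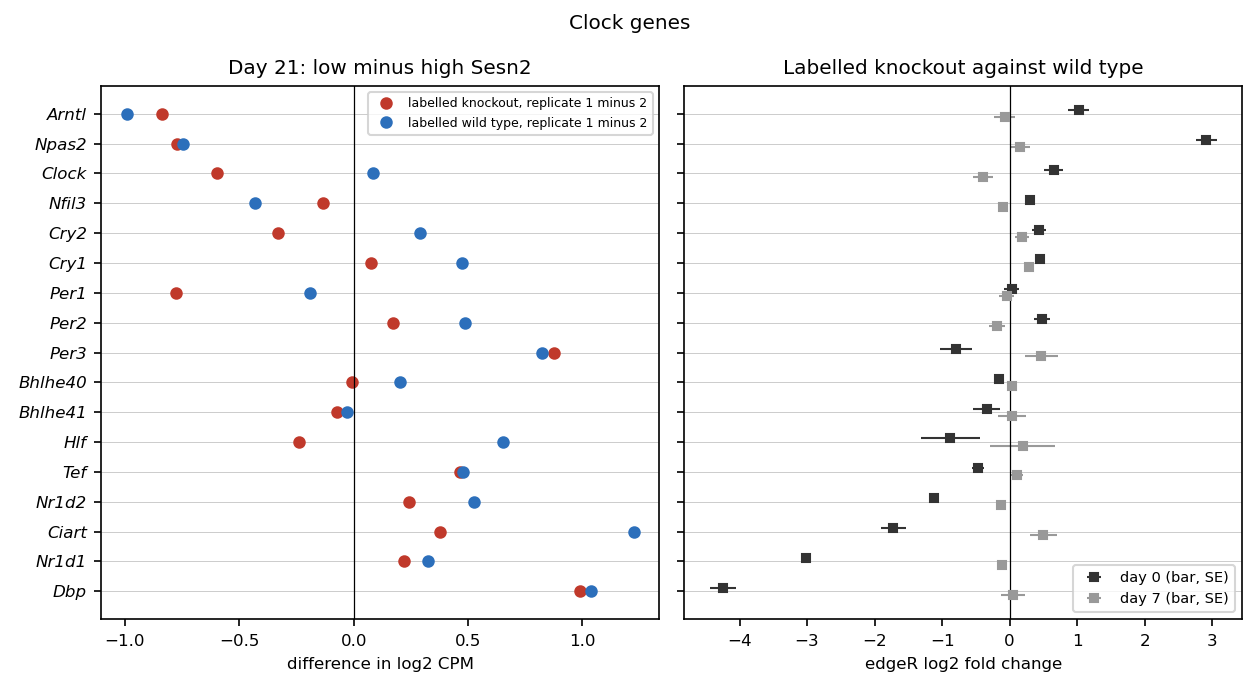
Clock genes, on the left as the day 21 difference of replicate 1 (low Sesn2) minus replicate 2 (high Sesn2) in log2 CPM within each label, and on the right as the edgeR log2 fold change of labelled knockout against wild type at days 0 and 7 with its SE. Dbp and Arntl lie on opposite sides of 0 in each panel, and their order at day 0 is the reverse of that at day 21.

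Genes lower in the low-Sesn2 pair included some of those of muscle differentiation. Of 31 tested, 11 were lower in both low-Sesn2 libraries, 2 were higher and 18 overlapped, and 7 were lower with a gap of at least 1. Among all genes 18.1% were lower, 16.8% higher and 1.04% lower with such a gap. Summed over the list, levels overlapped, at 2289 and 2168 CPM in the low pair and 2559 and 2072 CPM in the high pair. Myog, the transcription factor that commits myoblasts to differentiate, was at 32.4 and 42.9 CPM in the low pair and 88.9 and 114 CPM in the high pair. Myod1, which acts before Myog, lay the other way at 310 and 357 CPM against 275 and 183 CPM. The membrane protein myomaker, needed for myoblast fusion and listed as Tmem8c, was at 7.05 and 7.92 CPM against 21.7 and 20.9 CPM. Its partner myomixer, listed as Gm7325, was near 1 CPM or under in all 4 libraries, at 0.222 and 0.207 CPM against 1.13 and 1.19 CPM. Actc1, cardiac actin, which immature muscle also makes, was at 8.20 and 10.5 CPM against 26.1 and 25.2 CPM.

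Myog, Tmem8c and Actc1 were also lower in knockout at day 0, in libraries the division did not use. Myog fell by 1.43 (SE 0.0828, edgeR adjusted p = 2.2e-05), from 85.9 and 90.9 CPM in wild type to 34.7 and 31.6 CPM in knockout. Tmem8c fell by 1.16 (SE 0.0923, edgeR adjusted p = 6.4e-05) and Actc1 fell by 1.12 (SE 0.0826, edgeR adjusted p = 5.2e-05). In the list as a whole 15 genes fell and 3 rose at day 0, where 19.1% and 19.2% of all genes did. At day 7, with Myog at 763 to 1005 CPM over the 4 libraries, 2 genes of the list fell and 9 rose, where 2.61% and 4.71% of all genes did. Markers of mature fibres summed to 742 and 482 CPM in the low pair and 925 and 426 CPM in the high pair, so that the higher library of each pair was the one labelled knockout.

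Of the 11 genes other than Sesn2 named for the widest gaps on this side, Tmem8c, Actc1, Rspo1 and Scube1 also fell in knockout at day 0, where 19.1% of all genes did. Rspo1, a secreted activator of Wnt signalling, was at 2.44 and 2.48 CPM in the low pair and 9.81 and 7.03 CPM in the high pair, and its day 0 value fell by 1.77 (SE 0.197, edgeR adjusted p = 0.00031). Scube1, a secreted and membrane glycoprotein, was at 4.40 and 3.25 CPM against 12.4 and 13.7 CPM, and its day 0 value fell by 2.11 (SE 0.373, edgeR adjusted p = 0.003). Others were lower in knockout at day 7 alone. Otoa, otoancorin, was at 11.7 and 10.7 CPM against 59.3 and 63.6 CPM. It had 23 and 26.1 CPM in knockout and 20.5 and 27.6 CPM in wild type at day 0, and at day 7 it fell by 1.37 (SE 0.142, edgeR adjusted p = 0.0011), from 146 and 131 CPM in wild type to 50.6 and 57.0 CPM in knockout. Arnt2, a partner of bHLH-PAS transcription factors, was at 0 and 1.39 CPM against 6.70 and 9.28 CPM. At day 7 it was at 0 CPM in both knockout libraries and at 4.83 and 2.87 CPM in wild type (edgeR adjusted p = 0.001). Another set went the other way or was not called on either day. Lamc3, a laminin chain, was at 12.5 and 11.2 CPM against 39.9 and 49.6 CPM, and at day 7 it rose in knockout by 1.48 (SE 0.243, edgeR adjusted p = 0.0088). Slit2, a guidance ligand, was at 3.51 and 4.05 CPM against 9.81 and 15.3 CPM, and at day 0 it rose by 1.63 (SE 0.453, edgeR adjusted p = 0.021). Fry, a cytoskeletal protein, was at 18.9 and 17.7 CPM against 47.2 and 46.7 CPM.

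The Sestrin and GATOR list was lower or overlapping. Leaving out Sesn2, which chose the pairs, 7 of 15 genes were lower in the low pair, including Sesn1, and none was higher, where 18.1% of all genes were lower. Apart from Sesn1 these lay close together. Wdr24, a GATOR2 subunit, was at 12.4 and 11.7 CPM in the low pair and 15.8 and 15.7 CPM in the high pair. Mios, also of GATOR2, was at 28.2 and 26.5 CPM against 32.8 and 36.3 CPM, and Depdc5, of the GATOR1 complex that restrains mTORC1, at 11.6 and 9.57 CPM against 13.4 and 13.7 CPM. At day 0, 2 of the 15 fell in knockout and 2 rose, the latter being Wdr24 and Gatsl2, where 19.1% and 19.2% of all genes did.

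Of 27 sterol and fatty acid synthesis genes, 12 were lower in both low-Sesn2 libraries, none was higher and 15 overlapped, against 18.1% lower among all genes. Idi1, an enzyme of cholesterol synthesis, was at 102 and 113 CPM against 151 and 142 CPM, and Fasn, fatty acid synthase, at 46.6 and 39.5 CPM against 79.96 and 60.5 CPM. At day 0, 11 of the 27 fell in knockout and 1, Fasn, rose, against 19.1% and 19.2% of all genes. Of 38 nuclear genes of the respiratory chain 9 were lower and none higher, by gaps of 0.12 or less, a share near the 18.1% of all genes.

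On the higher side, 12 of 20 heat shock genes were higher and 2 lower in the low pair, where 16.8% of all genes were higher and 18.1% lower. Hsph1, a large chaperone of the HSP110 family, was at 63.1 and 64.6 CPM against 42.9 and 43.3 CPM, and Hsp90ab1 at 1877 and 1966 CPM against 1323 and 1452 CPM. At day 0, 9 of the 20 fell in knockout and 1 rose, the other direction from day 21, where 19.1% and 19.2% of all genes did. Of 19 glucocorticoid targets 11 were higher and 1 lower in the low pair, against 16.8% and 18.1% of all genes. At day 0, 7 rose and 4 fell, against 19.2% and 19.1% of all genes, so that the share that fell was near that of all genes. Fkbp5, a co-chaperone of the glucocorticoid receptor, was at 57.4 and 49.1 CPM against 31.6 and 23.5 CPM, and Tsc22d3 (GILZ) at 504 and 520 CPM against 362 and 207 CPM. Both were among the 7 that rose, Fkbp5 by 1.05 (SE 0.117, edgeR adjusted p = 0.00031) and Tsc22d3 by 0.98 (SE 0.0555, edgeR adjusted p = 2.1e-05). The single lower gene, Ddit4, an inhibitor of mTORC1 that the glucocorticoid receptor induces, was at 6.94 and 22.8 CPM against 31.1 and 25.6 CPM.

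Of 26 genes of the quiescent muscle stem cell, 5 were lower and 2 higher in the low pair, and 19 overlapped, against 18.1% lower and 16.8% higher among all genes. Notch3, a receptor that keeps these cells quiescent and that pericytes also express, was at 248 and 448 CPM against 625 and 718 CPM. It belongs to the 10 mural cell markers as well, of which 6 were lower and none higher, with sums of 7461 and 6470 CPM against 8715 and 8804 CPM. Of 12 endothelial markers 2 were lower and none higher. Sums over 12 fibro-adipogenic markers were 20138 and 19952 CPM against 17873 and 11233 CPM, with the lowest library the wild-type-labelled one of the high pair. Gene by gene, 4 of these 12 (33.3%) were lower and 2 (16.7%) higher, and their median difference was -0.083 on the log2 scale, the other direction from the sums. Of 10 Schwann cell markers 5 were higher and none lower, with sums of 2408 and 2332 CPM against 2413 and 1734 CPM, which overlapped. The part of these cell types in the division was not tested.

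Over all genes, 274 of 15890 (1.72%) had a gap of at least 1, 166 lower and 108 higher in the low pair. The same rule applied to the labels gave 172 (1.08%), and overlap was absent for 38% of genes by label. Of the 166, 30 (18.1%) fell and 11 (6.63%) rose in knockout at day 0, and of the 108, 11 (10.2%) fell and 16 (14.8%) rose, against 19.1% and 19.2% of all genes. All 4 of these shares lay below those of all genes. At day 7, 5 of the 166 fell (3.01%) and 7 rose (4.22%), while none of the 108 fell and 6 rose (5.56%), against 2.61% and 4.71% of all genes. Across the 15890 genes, which are not independent and whose counts share the scaling, the difference low minus high had a Pearson correlation of 0.083 with the day 0 fold change and 0.0436 with that of day 7 (Spearman -0.0098 and 0.0364). Within 5 Mb of Sesn2, 159 other genes were tested, of which 44.7% did not overlap between the pairs and 32.1% did not overlap between the labels. Within 5 Mb of Sesn1 it was 34.5% and 27.3% of 55. Over all genes it was 34.9% by pair and 38% by label.

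A search added after seeing the data took genes that were called in the same direction at both day 0 and day 7 with a gap of at least 1 between labelled genotypes on each day. Sesn2 and 27 other genes met this, and no day 21 library was used to choose them. At day 21, 7 of the 27 did not overlap between the pairs with the low pair on the knockout side, and 2 with the low pair on the wild-type side, against 34.9% of all genes in either direction. By label, 5 of the 27 did not overlap in the direction of days 0 and 7, and 1 against it, where 38% of all genes did not overlap. Gm9385 and Serpina3j had no counts at day 21. Hsd3b6, Cyp2g1, Ugt1a1 and Serpina3b had counts only in replicate 2 labelled wild type. These genes stay among the 27 though they could not be without overlap. With a gap of at least 1 at day 21, 5 of the 27 had the low pair on the knockout side and none on the other, and none was divided by label, where 1.72% of all genes had such a gap by pair and 1.08% by label. A gap of 0.5 on days 0 and 7 gave 130 genes besides Sesn1 and Sesn2. Among these 25 had the low pair on the knockout side and 24 on the wild-type side, while 41 followed the labels and 4 went against them. The count by pair and the count by label thus differ with the gap that is asked for.

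The 5 genes with wide gaps, named after their values were seen, were Gm10282, Gm10036, RP24-447G12.2, En2 and Ly6d. Gm10282 (ENSMUSG00000070713, chromosome 8, 72304110 to 72305260, minus strand) was at 24.1 and 24.4 CPM in the low pair and 0.315 and 1.07 CPM in the high pair. It was at 20.0 and 27.3 CPM in knockout and 2.81 and 1.90 CPM in wild type at day 0, and at 101 and 104 CPM against 4.19 and 4.22 CPM at day 7. The low pair thus lay in the range of knockout libraries of day 0 and the high pair below every wild-type library of both days. Gm10282 is 99.3% identical over its length to the chromatin protein gene Hmgn2, which lies 1.45 Mb from Sesn2, and RP24-447G12.2 on chromosome 13 is 92.5% identical to Hmgn2. Gm10036, on chromosome 18, is 99.4% identical to the ribosomal protein gene Rpl11, 3.52 Mb from Sesn2. Reads of such copies can be assigned to either gene, so the counts of each are uncertain.

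Gm10036 was at 8.09 and 8.95 CPM in the low pair and 0 and 0.145 CPM in the high pair, with 4.96 and 7.88 CPM in knockout and 0.0625 and 0 CPM in wild type at day 0. Hmgn2 itself was at 153 and 158 CPM in the low pair and 135 and 250 CPM in the high pair, and overlapped. En2, a homeobox transcription factor, was at 3.03 and 2.01 CPM against 0.0629 and 0.202 CPM. Ly6d, a surface protein of the Ly6 family, was at 0.517 and 0.0295 CPM against 1.26 and 1.94 CPM, and at 0 CPM in all 4 knockout libraries of days 0 and 7.

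The 5 of the 27 that followed the labels at day 21 were Chrdl2, Nrap, Pof1b, Npy and Gm28438, with label gaps of 0.18 to 0.67. Chrdl2 was at 136 and 121 CPM in replicates 1 and 2 under the knockout label and 170 and 179 CPM under the wild-type label, and it fell in knockout at day 0 by 1.09 (SE 0.0838, edgeR adjusted p = 5.8e-05) and at day 7 by 1.85 (SE 0.0942, edgeR adjusted p = 5.3e-05). Nrap, a muscle protein of the myotendinous junction, was at 2.99 and 3.87 CPM under the knockout label and 0.797 and 2.17 CPM under the wild-type label. Pof1b, an actin-binding protein, was at 4.10 and 2.20 CPM against 5.02 and 5.81 CPM. Npy, neuropeptide Y, was at 0.776 and 0.598 CPM against 0.886 and 1.39 CPM, and Gm28438, which has near copies, at 10.9 and 3.84 CPM against 17.3 and 17.4 CPM. Gm28438 had 0 counts in all 4 knockout libraries of days 0 and 7, whereas the knockout-labelled libraries of day 21 held 294 and 122 counts. Krt79, a keratin, went against the labels, at 5.02 and 4.44 CPM against 0.384 and 3.09 CPM.

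The labels at day 21 were also tested over all genes. In the 12-library fit 2 genes were called between labels at day 21, Rbbp4 and Vdac1, out of 2259 (14.2%) at an unadjusted p under 0.05. Without replicate 1 labelled wild type 886 genes were called, and without replicate 1 labelled knockout 273. In these fits one arm has a single day 21 library, assumed to vary like the other groups. Rbbp4, a histone-binding protein, measured 174 CPM in knockout-labelled replicate 1 and 136 CPM in replicate 2, against 352 and 356 CPM under the wild-type label, a log2 fold change of -1.19 (SE 0.128, edgeR adjusted p = 0.0397). It also fell in knockout at day 0, by 0.38 (edgeR adjusted p = 0.0076), and at day 7, by 0.70 (edgeR adjusted p = 0.0019). Vdac1, the main channel of the outer mitochondrial membrane, was at 127 and 153 CPM against 29.9 and 46.2 CPM, a log2 fold change of 1.88 (SE 0.213, edgeR adjusted p = 0.0397). Both genes overlapped between the low and the high pair. With the replicate number as a block Rbbp4 lost its call (edgeR adjusted p = 0.0914) and Vdac1 was called (edgeR adjusted p = 0.026). On log2 TPM with a pseudocount of 1, limma gave Rbbp4 a smaller fold change of -0.62, and neither gene was called. In an edgeR fit of the 4 day 21 libraries alone neither was called, and 932 genes had an unadjusted p under 0.05.

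**Figure D5:**
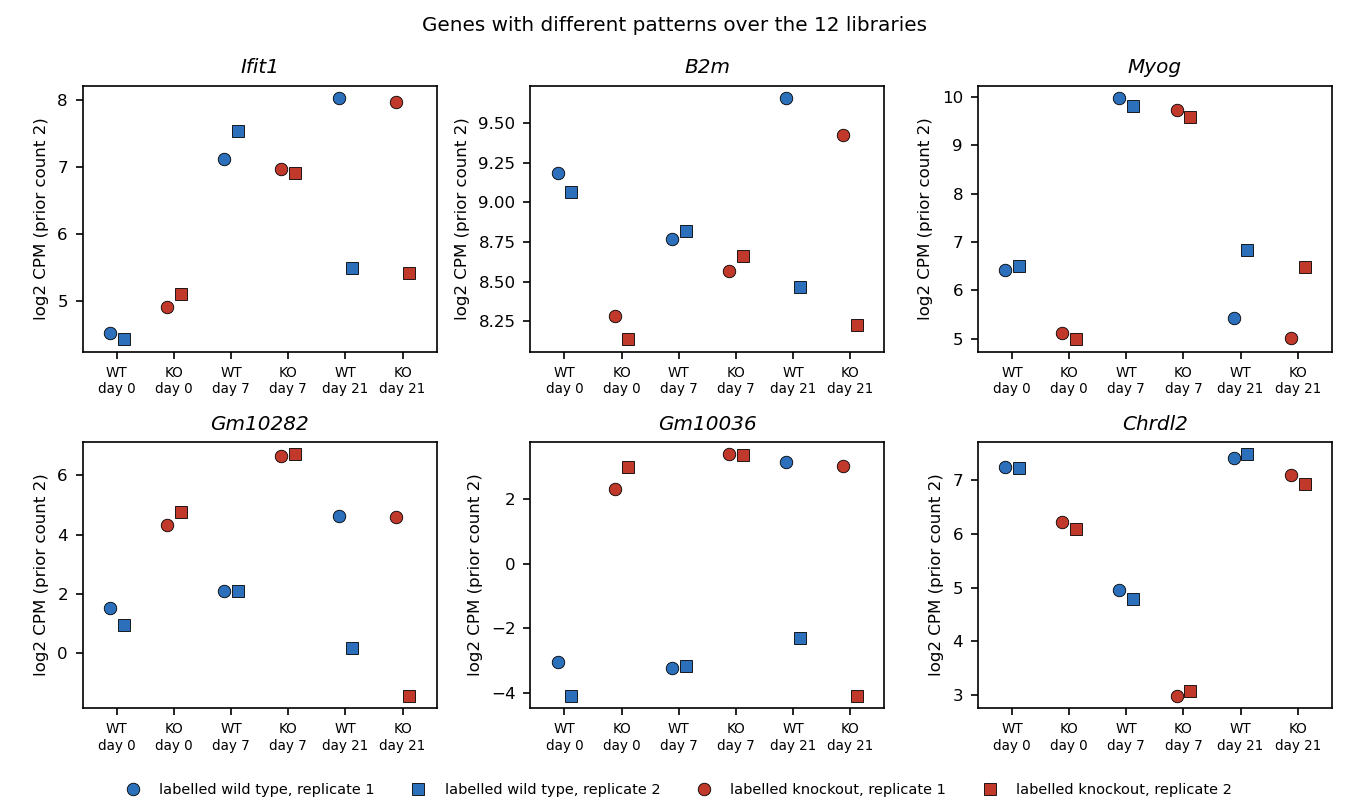
The genes Ifit1, B2m, Myog, Gm10282, Gm10036 and Chrdl2 in the 12 libraries as log2 CPM, by labelled genotype (WT wild type, KO knockout; colour) and day, replicate 1 as circles and replicate 2 as squares, with axes that do not start at 0. At day 21 Ifit1, B2m, Myog, Gm10282 and Gm10036 separate circles from squares, while in Chrdl2, a secreted antagonist of BMP signals, they overlap and the labels separate.

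The libraries of the 2 pairs were of like depth, with 29467034 and 37020131 counts in the low pair and 33750315 and 34052430 in the high pair, in a series that spans 28396862 to 38950614. Mitochondrial genes took 1.05% and 1.37% of counts in the low pair and 0.978% and 1.5% in the high pair. By label, both knockout libraries lay below both wild-type libraries on each day, with 1.71% and 1.45% against 2.39% and 2.21% at day 0. At day 7 it was 0.558% and 0.8% against 0.958% and 0.968%. All 12 mitochondrially encoded respiratory chain genes tested were without overlap by label at day 21, against 38% of all genes. All 12 overlapped between the pairs. Their median log2 difference by label was -0.44 at day 21, and -0.55 and -0.47 at days 0 and 7. Of 4 Y-linked genes, Kdm5d had 63 to 108 counts over the 12 libraries, while Uty had 2 to 14 and Ddx3y and Eif2s3y had 0 to 4 each. The median distance between the 2 libraries of a pair was 0.20 on the log2 scale in the low pair and 0.34 in the high pair, against a median absolute difference of 0.20 between the pairs. In the batch-corrected log2 table that the authors deposited, the spread of low minus high over genes was 0.104 (SD, 15890 genes), against 0.572 in log2 CPM. The 274 genes with a gap had a median absolute difference of 0.0698 there, against 2.02 in log2 CPM. Sesn2 stood at 9.65 and 10.10 in the low pair and 11.19 and 9.81 in the high pair in that table, so that the pairs overlapped. The labels do not say which batch was removed.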

How the data were processed

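Bulk RNA from 12 libraries of sorted muscle stem cells was read by SMART-Seq v4 with 76-base single-end reads, per the labels' protocols. The deposited tables hold estimated counts for 30154 genes, TPM, and batch-corrected log2 values for 21782 genes. Per the submitters' processing notes kallisto 0.46.1 and GRCm38.p6 (mm10) were used by the authors. How the batch correction was made is not given in the sources used here. Here each estimated count was rounded to a whole number, 15890 genes passed edgeR's filterByExpr, and TMM scaling with edgeR's quasi-likelihood test (edgeR 4.0.16, R 4.3.3, Benjamini-Hochberg adjustment over all genes tested, called at an adjusted p under 0.05) was used. Days 0 and 7 were fitted on their 8 libraries, and labels at day 21 on all 12. Estimated counts make the calls no more precise than the spread between 2 libraries a group. Values of CPM use TMM-scaled totals, and log2 CPM has a prior count of 2.

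The libraries low and high in Sesn2 were compared with no test, because Sesn2 chose them. A gene is without overlap where both libraries of one pair exceed both of the other. Members, the 34 gene lists and the tests were chosen with earlier results of these data known. By rule, the genes named are a fixed set and the 12 with the widest gap each way (at least 5 CPM in the higher pair). To these come at most 6 genes of each list with a gap of at least 1, and genes said to have been named after their values were seen. Other genes, such as Socs1, Gbp7, Wdr24, Fasn and Myod1, were picked from their lists outside these rules. Gene positions are from GENCODE for GRCm38 and matched 15789 of 15890 genes. Near copies are transcripts at least 90% identical over at least 80% of the length (BLAST 2.17.0). The fits were tested on simulated data. Alternatives were limma 3.58.1 on log2 TPM, DESeq2 1.42.0, other filters, scalings and pseudocounts, a replicate block, the batch-corrected table and leaving out each library.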

Additional observations from a re-analysis of the deposited data

Results flagged for a closer look

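For 19 genes named above, both knockout libraries lay on one side of both wild-type libraries at day 0 and on the other side at day 7. The share of all genes with this pattern was not counted. Some gaps were narrow, at 0.02 on the log2 CPM scale for Nfil3 and Arntl at day 7. The difference between the days was not tested. Values are edgeR log2 fold changes of labelled knockout against wild type, on 2 libraries a group, and some are not called on one or either day. The fusion gene Gm7325 (myomixer) was called on both days, with -2.23 at day 0 (SE 0.383, edgeR adjusted p = 0.0024) and 0.96 at day 7 (SE 0.144, edgeR adjusted p = 0.0056), from under 1 CPM in all 4 libraries of day 0. The muscle actin gene Actc1 had -1.12 at day 0 and 0.20 at day 7, and Scube1 had -2.11 and 0.59. Among interferon and antigen presentation genes, Usp18 had 1.16 at day 0 and -0.23 at day 7, Rsad2 0.85 and -0.80, Ifit1 0.53 and -0.41, Trim25 0.19 and -0.37, and Psmb8 -0.43 and 0.70. Among clock genes, Ciart had -1.72 at day 0 and 0.50 at day 7, Per3 -0.79 and 0.47, Arntl 1.02 and -0.075, Clock 0.65 and -0.39, Per2 0.48 and -0.19, and Nfil3 0.30 and -0.10. Of the other lists, Fkbp5 had 1.05 at day 0 and -0.25 at day 7, Fasn 0.33 and -0.12, Mios 0.15 and -0.065, and Hsp90ab1 -0.13 and 0.12. Arnt2, listed at 0 in both knockout libraries of day 7, had means of 11.9 CPM in knockout and 6.19 CPM in wild type at day 0, and 0 and 3.85 CPM at day 7.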

How the results depend on the processing

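At day 0, where 6090 genes were called, counts stayed within 1.5 times under every alternative other than leaving out a library, which gave 3572 to 6911. For the day 7 labelled knockout against wild type, 1164 genes were called. There the 12-library fit called 280, the 4 libraries of that day alone 429, and limma (log2 TPM, pseudocount 0.1) 633, or 671 at a pseudocount of 1 and 433 without the filter. Leaving out a library gave 405 to 1815. For the day 21 labelled knockout against labelled wild type, 2 were called. DESeq2 called 475, a minimum of 10 counts 23, no filter 57, and limma with a pseudocount of 1 and no filter 14. edgeR on the 4 libraries of day 21 alone and limma with a pseudocount of 0.1 called 0, with 932 and 1845 genes at an unadjusted p under 0.05. Leaving out a library gave 0 to 886, the highest without replicate 1 labelled wild type, and 273 without replicate 1 labelled knockout.

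No label says that a replicate number marks a shared animal or batch, and the numbers were not taken to pair the samples over the series. Replicate differences of the 2 genotypes correlated across genes at 0.0412, -0.143 and 0.0700 on days 0, 7 and 21 in log2 CPM, and at 0.112, -0.162 and -0.754 in the batch-corrected table. This leaves the division at day 21 by replicate number as described. With the replicate number as a block, 5106 genes were called at day 0, 630 at day 7 and 1 at day 21 (Vdac1).

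The 274 genes divided at day 21 became 78 with at least 10 counts in each library, 125 on log2 TPM with a pseudocount of 0.1, 65 with 1 (with or without the filter), 799 at a gap of 0.5, 808 with no overlap and a mean difference of 1, and 0 in the batch-corrected table. Leaving out a library gave 670 to 996, since 3 libraries are easier to separate. The batch-corrected table cannot check the division, since the pairs coincide with replicate numbers and the batch removed is not known. The interferon median of 0.76 became 0.15 in the batch-corrected table, 0.59 on log2 TPM and 0.79 at a prior count of 0.5, with 0.71 to 0.82 when a library was left out. The clock repressor median of 0.27 became 0.015 in the batch-corrected table, and 0.10 to 0.45 when a library was left out.

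Signs turned for Bhlhe40 at day 0 (-0.16 in edgeR, 0.066 in limma on log2 TPM under all 3 settings). In the batch-corrected table they turned for Bod1l (-0.066), Ciart (-0.073), Cry1 (-0.0029), Fry (0.13) and Gatsl2 (0.033) among named genes without overlap. They also turned for Mmp9 (0.043) and Penk (0.020), the 2 of the 27 genes with the low pair on the wild-type side. Of named genes that overlapped, Cd68, Csf1r, Hlf, Hmgn2, Krt79, Npy, Oas2 and Vdac1 turned too, all with gaps below 0 and so no direction between the pairs to begin with. Between labels at day 21, leaving out a library gave -0.55 to 0.32 for Sesn1 and -2.199 to 2.73 for Sesn2. The cause was not tested. With 2 libraries a group, and pairs that coincide with replicate numbers, no difference between the pairs has a replicate check of its own.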

Other observations

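Several genes on chromosome 14 stood higher in the low-Sesn2 pair of day 21. Plac9a had a mean of 17.7 CPM in the low pair and 1.40 CPM in the high pair, and Gm9780, whose transcript is 100% identical to that of Plac9a over the aligned length, 32.8 and 3.70 CPM. Tmem254c, 100% identical to Tmem254b, had 23.8 and 7.00 CPM. Counts of such copies are uncertain one from another. Of 546 genes tested on chromosome 14, 19 (3.48%) had a gap of at least 1, against 1.72% of all genes. These 19 include such copies, so that shared reads count more than once. On chromosome 18 it was 14 of 431 (3.25%).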
